A study of Rattus norvegicus with 3 samples.

Results

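The cells described here were 682 barcodes of the P14 library of the rat cochlea, chosen by measured counts of 4 genes. A barcode was a member if it held at least 2 unique molecules (UMIs) of Gjb2 and Gjb6 together, at least 3 UMIs of Ptgds, and fewer than 50 UMIs of Coch per 10000 UMIs. The P14 library held 6358 barcodes, of which 5281 passed limits on gene number (above 500, below 5000) and on mitochondrial UMIs (under 25%). The members made up 12.9% of these 5281 kept barcodes (exact binomial 95% interval 12.0% to 13.8%), and 30641 barcodes were kept over the 3 stages. The study sequenced untreated Sprague-Dawley rat cochleae at postnatal days 1, 7 and 14 (P1, P7 and P14), with tissue of several rats pooled into 1 library per stage. The labels name no treatment and no altered allele at any stage. Per the study's methods the basal membrane was dissected out and the spiral ligament and stria vascularis were taken off, so what the libraries hold of the lateral wall is what this dissection left. With 1 library per stage there was no replicate check and no test. Intervals are exact, at the 95% level, and cover counting error only. A stage cannot be told apart from its library.

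Gjb2 and Gjb6 encode connexin 26 and connexin 30, which form the gap junctions of cochlear supporting cells and of the connective tissue cells of the lateral wall, and mutations in them are a frequent cause of inherited deafness. Ptgds encodes lipocalin-type prostaglandin D synthase, a secreted enzyme and carrier of small lipids that is abundant in the membranes around the brain. Coch encodes cochlin, an abundant secreted protein of cochlear fibrocytes. Connexin-expressing cells of the cochlea therefore include both epithelial and mesenchymal cells, and the rule by itself does not separate these.

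The rule reduced the kept P14 barcodes in 3 steps. At least 2 UMIs of the connexins were found in 1844 barcodes, and 879 of these also had at least 3 UMIs of Ptgds. Of the 879, 682 were under the Coch limit and 197 were at or above it. These 197 barcodes, called Coch-high connexin cells below, met the same connexin and Ptgds limits as the members. They served as the comparison closest by the rule. Their Ptgds was lower, with a median of 15 UMIs (0.788% of UMIs) against 147 UMIs in members. The other comparison was with all 4599 remaining kept P14 barcodes. Median depth was 1856 UMIs per member, 1887 per Coch-high connexin cell and 1571 per other barcode, and the median mitochondrial share was 6.20%, 3.99% and 3.53%. Among kept barcodes, 53 sequences were shared between P1 and P7, 16 between P1 and P14 and 19 between P7 and P14, and 5 members carried a sequence that also occurred at P1 or P7.

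The values that chose the members are given as a description. Ptgds ranged from 3 to 1190 UMIs per member with a median of 147, which was 7.52% of all UMIs of the median member and 33.6% of those of the highest. Summed over members, Ptgds stood at 69948 CPM (counts scaled to a total of 1000000), second of all genes, against 18877 CPM in Coch-high connexin cells and 2509 CPM (rank 43) in the other P14 barcodes. The median member held 8 connexin UMIs, and 613 of 682 members (89.9%) held UMIs of both Gjb2 and Gjb6. Gjb2 stood at 2165 CPM in members, 1893 CPM in Coch-high connexin cells and 493 CPM in the other barcodes. Gjb6 stood at 1414, 977 and 210.5 CPM in the same order. No Coch UMI was found in 359 members (52.6%), and the highest member held 49.6 per 10000 UMIs.

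**Figure D1:**
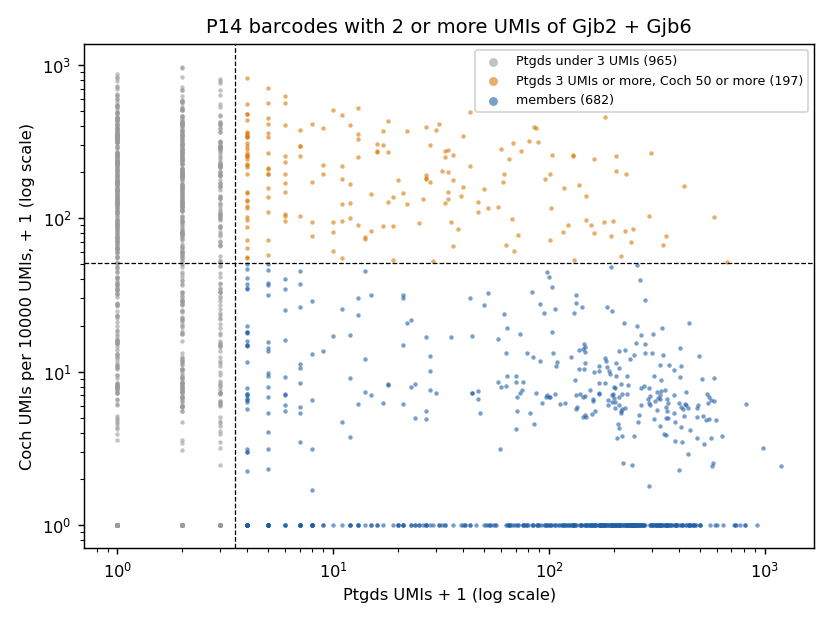
Each point is 1 of the 1844 kept P14 barcodes with at least 2 connexin UMIs, placed by its Ptgds UMIs + 1 and its Coch UMIs per 10000 + 1, both on log axes, with the Ptgds and Coch limits as dashed lines. The 682 members lie in the lower right, most densely at 100 to 600 Ptgds UMIs, and the 197 Coch-high connexin cells lie above them.

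Barcodes just inside and just outside each limit were compared by the summed level of Slc22a2, Slc22a6, Slc16a11, Slc7a11 and Slc6a13, the 5 genes with the highest ratio in members against other P14 barcodes among genes detected in 25% or more of members, apart from the rule genes. The 30 members with exactly 2 connexin UMIs had 2236 CPM of the 5 genes, and the 81 barcodes with 1 connexin UMI that met the other limits had 859 CPM. The 69 members with 3 or 4 Ptgds UMIs had 1389 CPM, and the 242 barcodes with 1 or 2 Ptgds UMIs that met the other limits had 1467 CPM, and the 171 with no Ptgds UMI had 1737 CPM (1589 to 1895). The 38 members with 25 to under 50 Coch UMIs per 10000 had 1591 CPM, against 1042 CPM in the 50 barcodes with 50 to under 100. Just inside and just outside the Ptgds limit the counting intervals overlapped (1230 to 1564 CPM and 1371 to 1568 CPM), and barcodes without Ptgds stood above the members nearest the limit, while levels were lower outside the other 2 limits. The 5 genes were chosen with barcodes inside the limits as members and those outside as others. A lower level outside a limit is thus partly built in and is no test of that limit.

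The members were not 1 uniform group. When all kept P14 barcodes were clustered into 16 clusters, cluster 2 held 506 of the 682 members (74.2%, interval 70.7% to 77.4%). Cluster 2 had 664 barcodes and was led by Slc22a2, Ptgds, Slc16a11, Slc22a6, Slc6a13 and Slc7a11. Of its 158 barcodes that were not members, 135 had under 3 Ptgds UMIs. The other 176 members lay in 14 clusters. The largest sets were 31 in the Schwann-like cluster 9, 27 in cluster 1 (led by Il33), 20 in the neutrophil-like cluster 4 (led by Fcnb and S100a8) and 20 in cluster 14 (led by Dnase1, Lrp2 and Otos). Cluster 15, led by Col2a1, held none. With the 4 rule genes left out of the clustering, 516 members (75.7%) fell into 1 cluster, and 499 of these were among the 506.

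**Figure D2:**
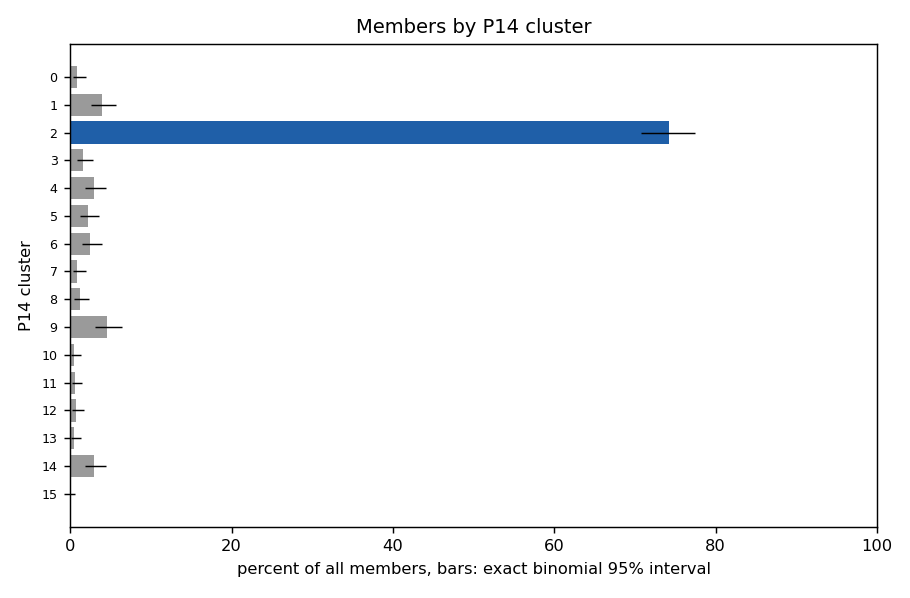
Bars give the percent of the 682 members in each of the 16 P14 clusters, named by number, with exact binomial 95% intervals. Cluster 2 held 74.2% of members and no other cluster held over 4.55%.

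The 176 members outside cluster 2 differed from the 506 inside it in depth and in genes of other cell types. Their median depth was 3046 UMIs against 1760 UMIs, and 138 of them (78.4%) held at least 3 UMIs from the marker list of another cell type (endothelial, mural, Schwann, blood, hair cell, epithelial, marginal or bone cells), against 150 (29.6%) of the 506 and 82.5% of the other P14 barcodes. These shares are of unthinned counts, and the part of depth in them was not tested. The summed Schwann markers stood at 5286 CPM outside cluster 2 and 809 CPM inside it, with all 7 markers found in both. Cochlear epithelial markers stood at 1729 CPM outside, 1571 CPM of it Epyc, and 19.2 CPM inside. Neutrophil markers stood at 473 CPM outside and 13.1 CPM inside. No doublets had been removed, and the part of mixed droplets in these values was not tested. Ratios below are given for all 682 members, and the level in the 506 is set beside them where it matters.

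Ptgds UMIs were found in barcodes of every cluster, and the part of free RNA in this was not tested. After each barcode had been thinned to 1000 UMIs, the share with a Ptgds UMI was 98.2% in members and 30.1% or more in each of the 16 clusters, among them 41.6% (interval 35.4% to 48.1%) of cluster 6, led by the B-lineage genes Vpreb2 and Igll1, whose median depth before thinning was 2172 UMIs. For the genes the rule did not use, the corresponding shares in members and in cluster 6 were 54.8% and 2.86% for Slc22a2, 54.4% and 2.45% for Slc16a11, and 72.7% and 7.35% for Slc7a11. Clusters 1 and 0 held a Gjb2 UMI in 70.5% and 72.9% of thinned barcodes. In cluster 1, which held 27 members among 186 barcodes, the 3 shares were 14.5%, 18.1% and 47.0% in the same gene order. In cluster 0, which held 6 members among 395 barcodes, they were 7.97%, 3.54% and 21.2%. Thinning left out 16 members and 719 other barcodes. Unthinned, a Ptgds UMI was found in 71.4% of cluster 6.

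Solute carriers led the genes that distinguished the members from the rest of the P14 library. A gene was counted as higher or lower if its level differed at least 2-fold after 10 CPM had been added to both sides, among genes at 10 CPM or more in either group. Of 8970 genes, leaving out the 4 rule genes, 205 (2.29%) were higher in members than in other P14 barcodes and 521 (5.81%) were lower, and the median log2 ratio of all genes was -0.13. Since the groups were formed from counts of the same cells, these numbers describe the groups and carry no test.

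Among genes detected in 25% or more of members, organic ion carriers showed the highest ratios. Slc22a2, the organic cation transporter OCT2, stood at 956 CPM (interval 911 to 1003) in members, 156 CPM in Coch-high connexin cells and 28.7 CPM in other barcodes, a log2 ratio of 4.64 against the last. Slc22a6, the organic anion transporter OAT1, stood at 420 CPM in members, 69.0 CPM in Coch-high cells and 19.0 CPM in others (log2 ratio 3.89). Slc22a8, the related OAT3, was lower in level at 33.9 CPM in members but reached only 1.82 and 3.43 CPM in the other groups. In the 506 members of cluster 2 these 3 genes stood at 1433, 623 and 49.5 CPM.

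Amino acid and monocarboxylate carriers followed. Slc7a11, the cystine and glutamate exchanger xCT that feeds glutathione synthesis, stood at 1954 CPM (1889 to 2021) in members, 414 CPM in Coch-high cells and 159 CPM in others (log2 ratio 3.54), and a UMI of it was found in 86.9% of members. For Slc3a2, its heavy chain partner, the levels over all members lay closer together, at 1136, 1044 and 694 CPM. In the 506 members of cluster 2 alone, Slc3a2 was at least 2-fold higher than in other barcodes. Slc16a11, a member of the monocarboxylate transporter family, stood at 950 CPM (905 to 997) in members, 107 CPM in Coch-high cells and 71.5 CPM in others (log2 ratio 3.56). Its neighbour on the chromosome in the RefSeq gene table, Slc16a13 of the same family, stood at 59.8, 9.08 and 7.47 CPM. Slc6a13, which carries GABA, betaine and taurine, stood at 681 CPM in members, 136 CPM in Coch-high cells and 59.2 CPM in others (log2 ratio 3.32), and the related Slc6a12 stood at 47.1, 10.9 and 6.06 CPM. Slc7a11 and Slc16a11 are the markers of these cells that the rule left free, and earlier results of the same data had named them.

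The 5 genes were also counted in single barcodes, without thinning. They were chosen as highest in these same members, so high shares in members follow in part from that choice. Whether they occurred together more often than their single shares would give was not tested. At least 3 of the 5 were found in 544 of 682 members (79.8%), all 5 in 209 members and none in 37. Among the 506 members of cluster 2, 463 (91.5%) had at least 3 of the 5 and none lacked all of them. Among the 176 members elsewhere 81 (46.0%) had at least 3, and among the 197 Coch-high connexin cells 29 (14.7%) did.

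**Figure D3:**
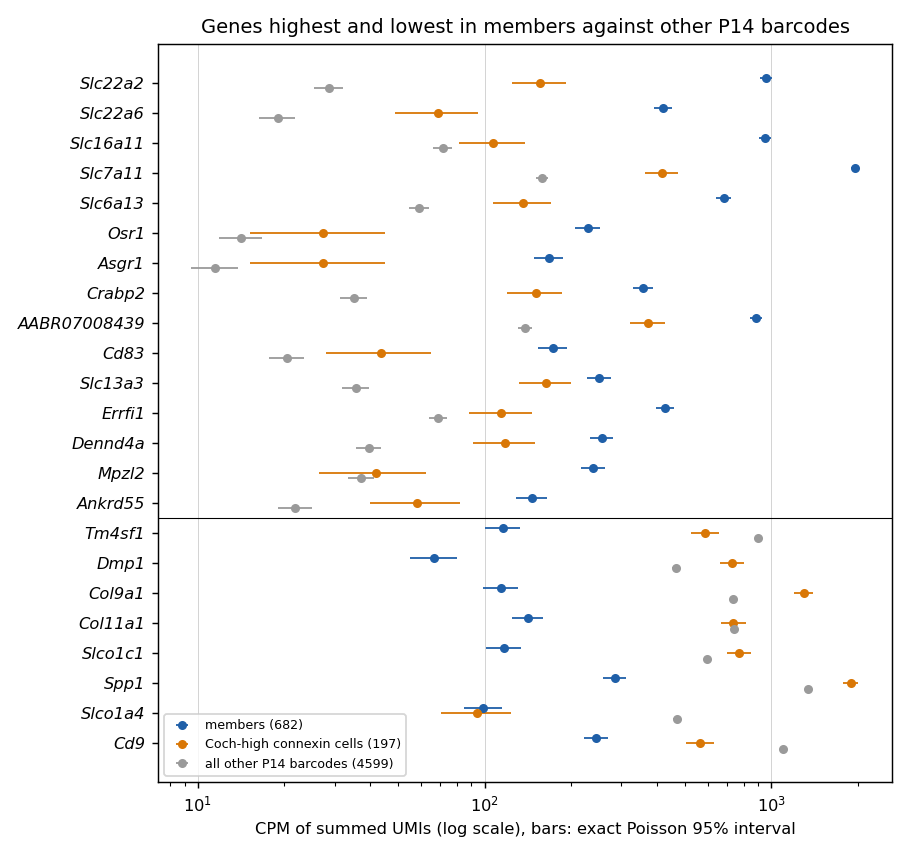
Points give the level in CPM on a log axis, from UMIs summed over 682 members, 197 Coch-high connexin cells and 4599 other P14 barcodes, with exact Poisson 95% intervals. The 15 genes above the line are the highest by ratio against other barcodes under the naming rule, and members stand above both groups for each of them. The 8 genes below the line are the lowest, and members stand below both groups for each except Slco1a4, where members and Coch-high cells overlap.

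The promoters of the 3 leading carrier genes that have an entry in the RefSeq promoter table are shown here. These genes were high in members without being used by the rule. Each runs 5′ to 3′ from 250 bases before to 50 bases after the annotated start, in the GRCr8 assembly, and capitals mark matches on either strand to 5 motifs: CCAAT, the box bound by the factor NF-Y, GGGCGG, the GC box, TATAAA, the TATA box, TGTTTAC, the core letters bound by forkhead factors, and TGACNNNGC, the core of the antioxidant response element.
Slc22a2, chr1:50710970-50711269, minus strand: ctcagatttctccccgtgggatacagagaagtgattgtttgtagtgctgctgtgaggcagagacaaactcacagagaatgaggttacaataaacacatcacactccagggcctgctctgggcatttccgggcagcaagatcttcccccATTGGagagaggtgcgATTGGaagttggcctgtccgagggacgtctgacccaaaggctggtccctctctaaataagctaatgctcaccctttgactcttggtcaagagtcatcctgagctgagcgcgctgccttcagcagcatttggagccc
Slc16a11, chr10:55427705-55428004, plus strand: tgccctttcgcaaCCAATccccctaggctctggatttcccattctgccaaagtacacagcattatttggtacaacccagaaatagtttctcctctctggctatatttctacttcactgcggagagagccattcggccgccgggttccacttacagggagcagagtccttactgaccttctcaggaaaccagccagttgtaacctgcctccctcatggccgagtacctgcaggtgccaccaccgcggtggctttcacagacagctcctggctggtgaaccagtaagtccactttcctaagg
Slc7a11, chr2:136668215-136668514, minus strand: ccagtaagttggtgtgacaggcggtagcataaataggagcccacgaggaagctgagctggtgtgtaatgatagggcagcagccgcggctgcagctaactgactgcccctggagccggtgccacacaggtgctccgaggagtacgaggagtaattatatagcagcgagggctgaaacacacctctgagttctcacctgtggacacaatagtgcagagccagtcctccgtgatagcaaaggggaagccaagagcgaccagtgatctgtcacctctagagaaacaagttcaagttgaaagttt
CCAAT occurred 2 times in the Slc22a2 window, on the opposite strand, once in that of Slc16a11 and not in that of Slc7a11, and 37.5% of all 33469 promoter windows hold it. None of the other 4 motifs occurred in these 3 windows. Of the 25 genes highest in members, 18 had an entry, and CCAAT occurred in 8 of them, GGGCGG in 10, TATAAA in 2, TGTTTAC in 1 and TGACNNNGC in 4, against 33.1%, 14.2%, 3.78% and 12.1% of all windows for the last 4. The counts are of genes with the motif in any of their windows, while the percents are of single windows, so the 2 are not the same measure. A match is a string of letters and not a shown binding site.

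Carriers of blood and brain barriers as a list differed in direction by gene. Of 20 listed barrier solute carriers 15 were above the level limit, and 9 were higher in members, 3 were lower and 3 lay within 2-fold. The median log2 ratio was 1.33 against -0.13 for all genes, of which 2.29% were higher and 5.81% lower. The list shares Slc22a2, Slc22a6, Slc22a8, Slc6a13 and Slc6a12, all among the 9, with the carriers above. Its count and median are therefore not independent of the genes given there. The 9 included Slc13a3, a sodium-coupled dicarboxylate carrier (250.5 CPM in members and 35.6 CPM in others), the sulfate carriers Slc26a2 (46.5 and 9.70 CPM) and Slc13a4 (28.7 and 5.45 CPM), and Slc1a3, a glutamate transporter (545 and 216 CPM). The 3 lower genes were Slc2a1, the glucose transporter of barrier endothelium (40.8 and 253 CPM), the efflux pump gene Abcg2 (35.6 and 161 CPM) and Slc7a5, a large neutral amino acid carrier (29.3 and 132 CPM). Cluster 3, led by Slc2a1, Abcb4 and Abcg2, held 675 barcodes, of which 11 were members and the rest lay among the other barcodes. Against Coch-high connexin cells 7 of 15 list genes were higher and none lower, where 2.48% of all genes were higher and 3.23% lower. Other carriers among the genes named by ratio were Slc41a1, which moves magnesium (227 CPM in members, 102 CPM in Coch-high cells and 47.7 CPM in others), and Slc38a3, a glutamine carrier (207, 38.1 and 55.4 CPM).

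Transcription factors and signalling genes went in both directions. Osr1, an odd-skipped type zinc finger factor of mesenchyme, stood at 229 CPM in members, 27.3 CPM in Coch-high cells and 14.1 CPM in others (log2 ratio 3.31). Of 30 listed mesenchymal transcription factors 18 were above the level limit. Higher in members than in other barcodes were 4 (Foxc2, Foxd1, Gata3 and Zic2) and lower were 3 (Sox9, Gata2 and Tbx18), with a median log2 ratio of -0.07. Over all genes 2.29% were higher and 5.81% lower. For the 506 members of cluster 2, 6 were higher (Foxc2, Foxd1, Zic2, Zic1, Zic4 and Foxc1). Another 6 were lower there (Sox9, Gata2, Tbx18, Runx1, Runx2 and Pou3f4), where 3.64% of all genes were higher and 13.2% lower. Foxd1 stood at 241 CPM in members, 173 CPM in Coch-high cells and 89.0 CPM in others, and Foxc2 at 74.1, 50.9 and 21.5 CPM, so that members and Coch-high cells differed by less than 2-fold for both. Gata3 stood at 35.1 CPM in members, but at 20.2 CPM in the 506 of cluster 2 and 54.6 CPM in the 176 elsewhere. Sox9, a factor of cartilage and supporting cells, stood at 96.5, 579 and 242 CPM in the 3 groups. Of 23 genes of BMP, TGF-beta and Wnt ligands and antagonists above the limit, 2 were higher in members than in other barcodes (Wnt6 and Bmp7). Another 10 were lower (median log2 ratio -0.92), beside the same 2.29% and 5.81% of all genes. Against Coch-high connexin cells 3 of 21 were higher and 8 lower, where 2.48% of all genes were higher and 3.23% lower. Wnt4 and Wnt6, secreted Wnt ligands, stood at 563 and 133 CPM in members, 398 and 79.9 CPM in Coch-high cells and 146 and 28.5 CPM in others. Cdkn1c, the cell cycle inhibitor p57, stood at 1218 CPM in members, 707 CPM in Coch-high cells and 277 CPM in others. Errfi1, a feedback inhibitor of the epidermal growth factor receptor, stood at 426, 114 and 68.9 CPM.

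The remaining genes high in members were of varied function. Asgr1, a subunit of the asialoglycoprotein receptor, stood at 167 CPM in members, 27.3 CPM in Coch-high cells and 11.5 CPM in others (log2 ratio 3.04), and RefSeq places 4 protein-coding genes, Slc16a13 among them, between it and Slc16a11. Mpzl2, an adhesion protein of the immunoglobulin superfamily, stood at 239, 41.8 and 37.2 CPM. Timp3, an inhibitor of matrix metalloproteinases, stood at 521, 185 and 148 CPM, and Cd83, a surface protein known from immune cells, at 173, 43.6 and 20.5 CPM. Dennd4a, Ankrd55, Klhl8, Zfp385a, Bcat1, Mapk4 and 2 gene models with no symbol beyond AABR07008439 and AABR07068316 made up the rest of the 25, with log2 ratios of 1.74 to 2.59.

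Genes of retinoid handling included 4 of 12 that were higher in members and 1 that was lower (median log2 ratio 0.26). Over all genes these shares were 2.29% and 5.81%. Crabp2, which binds retinoic acid inside the cell, stood at 356 CPM in members, 151 CPM in Coch-high cells and 35.1 CPM in others. Rdh10, which oxidises retinol, stood at 72.4, 40.0 and 27.0 CPM. Rbp4, the secreted retinol carrier, stood at 228 CPM in members and 81.8 CPM in others but at 501.3 CPM in Coch-high cells. Aldh1a2, a retinoic acid synthesising enzyme, differed little from the other barcodes (32.8 and 22.7 CPM) and more from Coch-high cells (9.08 CPM).

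Genes known from the fibroblasts of the leptomeninges, a list that shares Slc22a6, Slc6a13 and Slc13a3 with the carriers above, were higher in 8 of 21 cases and lower in 2, with a median log2 ratio of 0.76. Of all genes 2.29% were higher and 5.81% lower. Against Coch-high connexin cells 4 were higher and 5 lower, with a median of 0.13, where 2.48% of all genes were higher and 3.23% lower. For the 506 members of cluster 2 against other barcodes, 11 of 21 were higher and 3 lower, with a median of 1.02. There 3.64% of all genes were higher and 13.2% lower. Markers of fibroblasts in general were present throughout. Dcn, a small proteoglycan of connective tissue, stood at 2998 CPM in members, 3840 CPM in Coch-high cells and 2580 CPM in others, and Pdgfra at 438, 436 and 260 CPM. All 7 fibroblast markers lay within 2-fold of the other barcodes, and 648 of the members held at least 3 UMIs of them, as did 54.2% of other barcodes. The sample labels give greater epithelial ridge cell as the cell type. In the 506 members of cluster 2 only 4 of 12 cochlear epithelial markers were found, at a summed 19.2 CPM against 178 CPM in other P14 barcodes, with Epcam at 3.03 CPM. No cell type name is therefore given to the members.

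Prostaglandin genes other than Ptgds were near or below the level limit. Of 28 listed genes 12 were above it, and Ptger3, a prostaglandin E2 receptor gene, was the 1 that was higher, at 17.8 CPM in members and 1.01 CPM in other barcodes, with 0 UMIs in Coch-high cells (upper bound 6.70 CPM). None was lower (median log2 ratio -0.19). The cyclooxygenase genes Ptgs1 and Ptgs2, which make the precursor that Ptgds converts, stood at 2.87 and 7.47 CPM in members against 12.2 and 13.6 CPM in other barcodes. Slco2a1, a prostaglandin uptake carrier, stood at 21.8 and 28.3 CPM. Among the genes of cystine uptake, glutathione and oxidant defence, 31 were above the limit, and 3 were higher (Slc7a11, Gstm1 and Gstm2), 1 was lower (Gpx3) and 27 lay within 2-fold. For the 506 members of cluster 2 against other barcodes, 6 of 32 were higher (the same 3 with Gstt1, Slc3a2 and Gsta4). Another 2 were lower there (Gpx3 and Mgst3) and 24 lay within 2-fold, where 3.64% of all genes were higher and 13.2% lower. Gstm1 and Gstm2, glutathione transferases, stood at 284 and 203 CPM in members and 112 and 81.6 CPM in others. Gclm, a subunit of the enzyme that starts glutathione synthesis, stood at 29.9 and 23.8 CPM, and Nqo1, an oxidant defence enzyme, at 12.1 and 11.5 CPM.

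Ion transport genes went in both directions. Of 20 above the limit, 3 were higher, among them Atp1b2 and Car14, and 5 were lower, among them Slc4a11, Atp1b1, Slc12a2 and Kcnk1. Over all genes 2.29% were higher and 5.81% lower. Atp1b2, a beta subunit of the sodium pump, stood at 603 CPM in members against 270 CPM in other barcodes. Atp1b1, another beta subunit, stood at 47.1 CPM against 139 CPM. In the 506 members of cluster 2 they stood at 755 and 36.4 CPM. Of the other connexin and pannexin genes only 4 of 22 were above the limit, and none was higher. Gja1, connexin 43, stood at 80.5 CPM in members, 43.6 CPM in Coch-high cells and 99.1 CPM in others.

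Some genes of cartilage-type matrix and of fibrocytes were low in members. Among the 15 lowest against other barcodes by the naming rule were Dmp1, an acidic matrix protein of mineralised tissue (66.7 CPM in members and 463 CPM in others), Col9a1 (114 and 737 CPM), Col11a1 (141 and 744 CPM), Spp1, osteopontin (284 and 1339 CPM), and Serpine2, a protease inhibitor (471 and 1978 CPM). Of 20 collagen genes above the limit 10 were lower, 1 was higher and 9 lay within 2-fold (median log2 ratio -0.93). Col1a1, a fibrillar collagen, stood at 804 CPM in members, 667 CPM in others and 183.5 CPM in Coch-high cells. Of 17 listed cochlear fibrocyte genes 8 were lower, 3 higher and 6 within 2-fold. Beside the collagen and fibrocyte lists, 5.81% of all genes were lower and 2.29% higher. The 3 higher fibrocyte genes were Otos, Ucma and Cemip. Otos (otospiralin) and Ucma stood at 133 and 9.09 CPM in the 506 members of cluster 2, against 9943 and 474.5 CPM in the 176 elsewhere, so that only the latter stood above the other barcodes (1166 and 48.4 CPM). Cemip, which takes part in hyaluronan breakdown, stood at 1376 CPM in the 506 and 437 CPM in other barcodes. Within cluster 2 alone 15 of the 17 were lower and 1 higher, where 13.2% of all 9133 genes were lower and 3.64% higher. Epyc (epiphycan), 681 CPM in members and 86.7 CPM in others, was likewise at 6.06 CPM in the 506 and 1571 CPM in the 176, with a UMI in 2.93% of members.

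Vascular and other genes made up the rest of the low side. Tm4sf1, a membrane protein of endothelium and other cells, stood at 116 CPM in members and 900 CPM in others, Slco1c1, a thyroid hormone carrier, at 117 and 596.5 CPM, the related Slco1a4 at 98.8 and 467 CPM, and Cd9, a tetraspanin, at 245 and 1095 CPM. Of 7 endothelial markers 6 were lower. The exception, Cdh5, which encodes VE-cadherin, stood at 165 CPM in members, 191 CPM in others and 52.7 CPM in Coch-high cells, and at 217 CPM in the 506, where the summed endothelial markers stood at 283 CPM, against 1280 CPM in other barcodes. Of 10 proliferation genes 5 were lower and none higher. Beside both lists, 5.81% of all genes were lower and 2.29% higher. Against Coch-high connexin cells all 10 proliferation genes lay within 2-fold. Of the 7 endothelial markers 2 were higher than in Coch-high cells (Cdh5 and Flt1), 5 lay within 2-fold and none was lower. In that comparison 2.48% of all genes were higher and 3.23% lower.

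Members and Coch-high connexin cells share the connexin and Ptgds limits but differ in the amount of Ptgds as well as in Coch, so the differences below cannot be assigned to the Coch limit. Only 2 of the Coch-high cells lay in cluster 2, with 72 in cluster 7 and 59 in cluster 0. The comparison is therefore largely one between clusters. Slc4a11, Col9a1, Col15a1 and Apod were among the leading genes of cluster 7. Under the Coch limit, 67 of the 242 connexin barcodes with 1 or 2 Ptgds UMIs and 40 of the 171 with none lay in cluster 2. Of 8635 genes, 214 (2.48%) were higher in members and 279 (3.23%) lower. The 5 carrier genes, Osr1, Mpzl2, Asgr1, Slc38a3 and Col1a1 had the 10 highest ratios among genes detected in 25% or more of members. Slc16a11 was the highest of them (log2 ratio 3.04), while Slc13a3 was among the genes within 2-fold (250.5 and 163.5 CPM, log2 ratio 0.59). Cav1, caveolin, stood at 529 CPM in members, 136 CPM in Coch-high cells and 395 CPM in others. The lowest among genes detected in 25% or more of Coch-high cells was Slc4a11, a membrane transporter whose loss causes corneal disease with hearing loss, at 16.7 CPM (11.2 to 23.9) in members and 329 CPM (283 to 380) in Coch-high cells, a log2 ratio of -3.67. Col9a1 (114 and 1295 CPM), Dmp1 (66.7 and 730 CPM), Gpx3, a secreted glutathione peroxidase (56.3 and 489 CPM), Col15a1 (64.4 and 499.5 CPM) and Apod, apolipoprotein D (4230 and 27650 CPM) followed. Of 16 fibrocyte genes 9 were lower in members and none higher, and Otor (otoraplin) among them stood at 53.4 and 866 CPM. Tbx18 and Pou3f4, factors of the cochlear mesenchyme, stood at 129 and 49.4 CPM in members and 469 and 182 CPM in Coch-high cells.

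Levels differed with the amount of Ptgds in the member. In the 112 members with 3 to 9 Ptgds UMIs, Slc22a2 stood at 143 CPM (106 to 190), and in the 143 members with 300 or more it stood at 1686 CPM (1561 to 1819), with 263, 912 and 1142 CPM in the classes of 10 to 29, 30 to 99 and 100 to 299 UMIs. Slc16a11 stood at 423, 715, 982, 1153 and 1166 CPM and Slc7a11 at 772, 1319, 2182, 2207 and 2726 CPM in the 5 classes from low to high. The intervals of Slc16a11 overlapped between the last 2 classes (1070 to 1240 and 1062 to 1278 CPM), while those of Slc22a2 did not. The classes were cut on a rule gene and the carrier genes were picked as highest in members. Their order is thus partly built in and is no test. In the 171 barcodes with no Ptgds UMI that met the other limits, Slc22a2, Slc16a11 and Slc7a11 stood at 78.8, 435 and 778 CPM. Apod was ordered the other way, at 10700, 6253, 4175, 2248 and 1007 CPM, and Coch, although capped by the rule, stood at 966 CPM in the lowest class and 257 CPM in the highest. The share of the class in cluster 2 was 39.3%, 57.8%, 76.0%, 85.0% and 87.4%, so part of these differences lies between clusters. Median depth was 1710 to 1814 UMIs in the first 4 classes and 2339 UMIs in the highest.

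**Figure D4:**
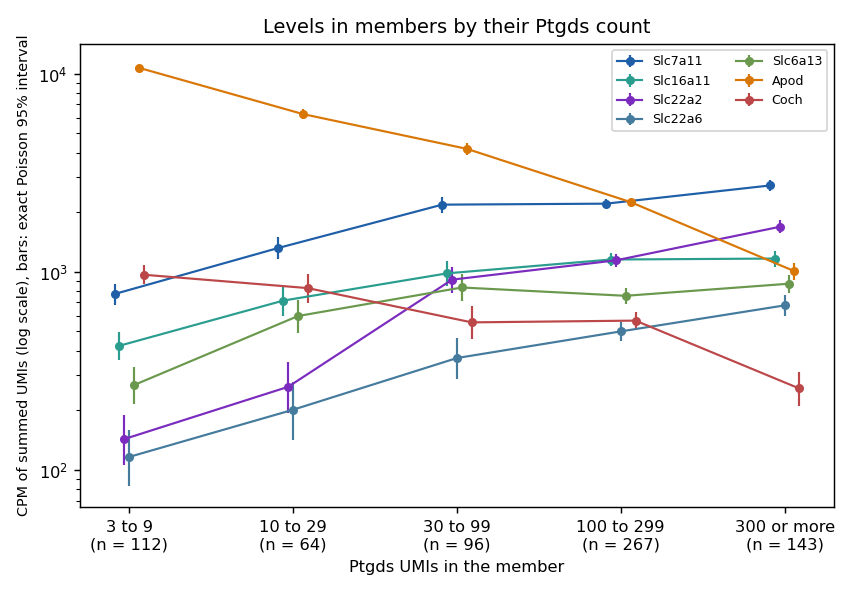
Points give the level of 7 genes in CPM on a log axis, from UMIs summed over members in 5 classes of Ptgds UMIs, with exact Poisson 95% intervals. The 5 carrier genes stand lowest at 3 to 9 Ptgds UMIs, and Apod stands at 10700 CPM there and at 1007 CPM in the highest class.

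Clustered on their own without the rule genes, the members fell into 7 sub-groups, of which the largest held 274 and 213 members and lay almost wholly in cluster 2 (272 and 199 members). The 5 carrier genes were high in both, at a summed 7877 and 6566 CPM, and median depth was 1754 and 1763 UMIs. In the first, Slc22a2 stood at 1867 CPM against 1004 CPM in the second, Slc38a5, a glutamine carrier, at 220 against 86.3 CPM, Slc7a8, a neutral amino acid carrier, at 932 against 549 CPM, and Osr1 at 407 against 244.5 CPM. Slc16a11 (1395 and 1460 CPM) and Asgr1 (251 and 254 CPM) did not differ beyond counting error. The second sub-group was higher in Apod (5116 against 503 CPM), Cldn1 and Cldn11, claudins of tight junctions (374 and 2956 against 64.3 and 1148 CPM), Cav1 (1103 against 318 CPM), Tgfbi (295 against 46.8 CPM) and Tsc22d3, a glucocorticoid-responsive gene (391 against 62.4 CPM). Median Ptgds was 232.5 and 105 UMIs. Since the sub-groups were cut from these same counts, the differences describe the cut.

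**Figure D5:**
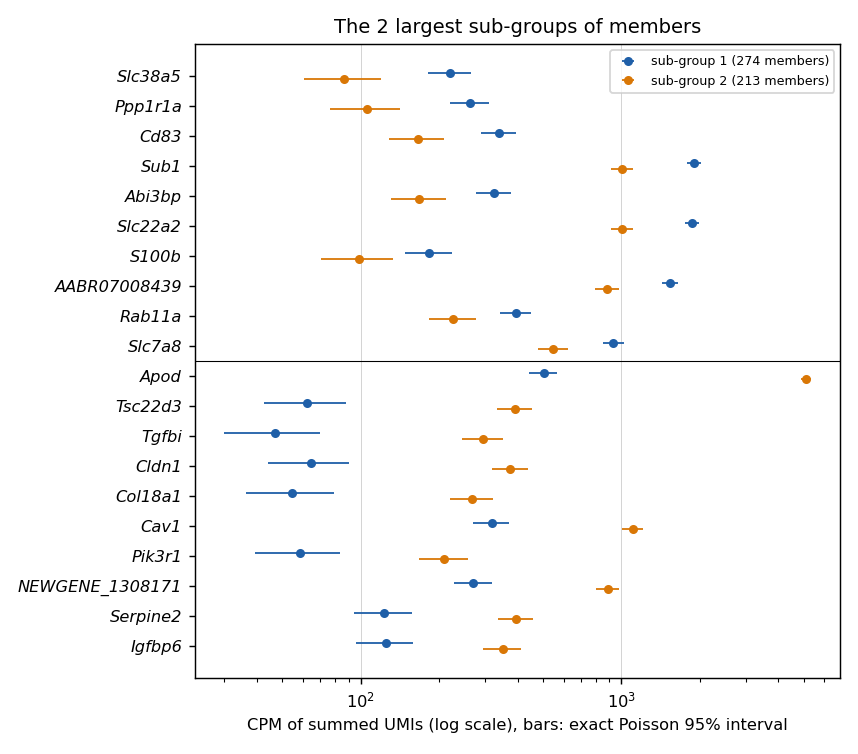
Points give the level in CPM on a log axis in the 2 largest sub-groups of members (274 and 213 barcodes), with exact Poisson 95% intervals, for the 10 genes highest in each against the other. The gap was largest for Apod, at 503 and 5116 CPM.

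The 5 smaller sub-groups held 67, 63, 38, 14 and 13 members. The 67 were led by Scd, Dpt and Clec3b, had a median of 5 Ptgds UMIs and 2654 CPM of the 5 carrier genes, and 25 of them lay in cluster 2. The 63 were led by S100a1, Cldn5 and Abcb4 and had a median of 3009 UMIs and 133 Ptgds UMIs. The 38, led by Lyz2, Tyrobp and Mpo, and the 14, led by the erythroid genes Ahsp and Car1, had medians of 6711 and 8110 UMIs, against 1856 over all members. The 13, led by Otos, Csap1 and S100b, held 39.3 CPM of the 5 carrier genes, under the level of the other sub-groups, of which the next lowest held 1171 CPM.

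The same limits were then applied at the earlier stages, after every kept barcode had been thinned to 1000 UMIs because kept barcodes of P1 and P7 held more UMIs (median 6565 and 6878, against 1614 at P14). The rule was met by 1 of 12742 barcodes at P1 (0.00785%), 5 of 12388 at P7 (0.0404%, interval 0.0131% to 0.0942%) and 526 of 4546 at P14 (11.6%, 10.7% to 12.5%). Thinning left out 37, 193 and 735 shallower barcodes. Unthinned, the shares were 0.376%, 0.779% and 12.9%. At least 2 connexin UMIs were found in 0.887% of thinned P1 barcodes, 3.75% of P7 and 30.4% of P14 ones, and at least 3 Ptgds UMIs in 0.157%, 0.468% and 20.3%. Without the rule genes, at least 3 of the 5 carrier genes were found in 2 thinned barcodes of the P1 library, 1 of the P7 and 479 of the P14 library (10.5%), a measure chosen after the data had been seen.

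Among thinned barcodes with at least 2 connexin UMIs, Slc22a2 gave 0 UMIs in 113 barcodes at P1 (upper bound 32.6 CPM), 2 UMIs in 464 barcodes at P7 (4.31 CPM) and 598 CPM in 1380 barcodes at P14. Slc16a11 stood at 35.4 CPM (9.65 to 90.6), 4.31 CPM (0.522 to 15.6) and 642 CPM in the same order, and Slc7a11 at 44.3, 15.1 and 1306 CPM. Crabp2 and Wnt6 differed less, at 62.0 and 44.3 CPM at P1, 136 and 25.9 CPM at P7 and 240 and 117 CPM at P14. Coch itself stood at 168, 84.1 and 9668 CPM in these connexin barcodes. Both the limits and the 5 carrier genes were chosen on the P14 library, so these values describe how that choice reads at P1 and P7 and are no test of a difference between stages.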

How the data were processed

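Single-cell suspensions of cochlear tissue were processed by the authors with the 10x Genomics 3′ kit, and UMI counts per gene and barcode were deposited without normalization, 1 matrix per stage. Per the labels and the study's methods, bcl2fastq, Cell Ranger and Seurat (version 3.1.1) were used and reads were aligned to rn6. The matrix header names Cell Ranger software 3.1.0. The files hold 34927 barcodes, the number the study gives as passing its limits, while the stated limits (more than 500 and fewer than 5000 genes, under 25% mitochondrial UMIs) leave 30641. Totals per library ran from 12616390 UMIs at P14 to 114285848 at P1.

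Members and lists were chosen with earlier results of these data known. UMIs were summed per group and given as CPM with exact Poisson intervals, and shares with Clopper-Pearson intervals (95%). The rule for named genes took the 25 highest and 15 lowest ratios against other P14 barcodes, and 15 each way against Coch-high connexin cells, among genes detected in 25% or more barcodes of the higher group. List genes could also be named. Further genes from sub-groups were chosen after their values were seen. Clusters were computed with scanpy 1.11.5 (2000 variable genes, 10 principal components, 20 neighbours, resolution 0.8, and 0.5 for members alone). Doublets were not removed. The ratio script was tested on simulated data. Of the listed symbols, 16 were not matched. Gene neighbours and promoters come from RefSeq (GRCr8), while the counts use rn6. Some genes are not reported here.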

Additional observations from a re-analysis of the deposited data

How the results depend on the processing

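The number of members was 613 to 924 under 8 other limits. The 70 ratios of genes named by the rule kept their sign and stayed past 2-fold in all 630 values under the alternatives run. These ratios had been picked as the most extreme and the alternatives reused the same counts, so this is no independent check. Counts of genes moved more. Against other P14 barcodes, higher and lower genes numbered 358 and 1034 with 1 CPM added, 332 and 1201 with the members of cluster 2 alone, and 314 and 1223 without members holding 3 UMIs of another type's markers, a setting chosen after seeing the data. With at least 50 CPM, 280 were lower. Against Coch-high connexin cells the counts were 607 and 592 with 1 CPM added, 96 and 180 with at least 50 CPM, 734 and 615 after thinning and 332 and 671 for cluster 2 alone. There 324 were higher with the mean CPM of each barcode, and 639 were lower without members holding markers of other types. Small counts in the 197 cells limit this comparison, and the cause of each move was not tested.

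The share of members in the cluster holding most of them was 80.5% at resolution 0.4, 57.6% at resolution 1.2 and 63.8% with 20 principal components. The share of thinned barcodes meeting the rule was 0.376% at P1, 0.779% at P7 and 12.9% at P14 unthinned, 0.0079% at P7 and 6.74% at P14 with 500 UMIs, and 15.2% at P14 with 1500 UMIs. With a mitochondrial limit of 10% it was 0 at P1 and 0.0116% at P7. No paired analysis was possible because each stage has 1 library and the comparisons lie within the P14 library.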
